A study of Mus musculus with 8 samples.

Results

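The 70 genes described here are the mouse replication-dependent histone genes, chosen by symbol: every gene whose name in the GENCODE M21 annotation starts with Hist1h, Hist2h, Hist3h or Hist4h. They were 70 of the 55573 genes in the deposited tables. By class they were 6 linker histone H1 genes, 20 H2A genes, 19 H2B genes, 12 H3 genes and 13 H4 genes, and 3 of the 70 are annotated as pseudogenes. Most lie in the Hist1 cluster on chromosome 13, which holds 24 of them in one stretch (chr13:21715763-22043676, GRCm38) and 31 in a second (chr13:23531050-23934851). Another 10 form the Hist2 cluster (chr3:96219865-96270132), 3 the Hist3 cluster (chr11:58948920-58956830), and Hist4h4 lies alone on chromosome 6. Hist1h2al, annotated as a pseudogene, lies on chromosome 13 outside both stretches.

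These genes supply the histones that package newly copied DNA, and in dividing cells they are transcribed mainly in S phase. Their mRNAs normally lack introns and a poly(A) tail. The transcript instead ends just after a short conserved stem-loop, which is bound by the stem-loop binding protein SLBP and cut with the help of the U7 small nuclear ribonucleoprotein. Some of the genes also give polyadenylated mRNA from a signal further downstream, a form known from differentiated cells and from cells in which stem-loop processing is reduced. The libraries were made from poly(A)-selected RNA, so the values below count the polyadenylated form, with whatever other histone RNA passed the selection, and say nothing of the main pool of histone mRNA.

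Bulk RNA-seq was read from 8 libraries of mouse embryonic stem cells (ESCs), 2 for each of 4 groups. The groups were wild-type cells without treatment (mESC), untreated cells carrying the 2C::GFP reporter (2C::GFP+), reporter cells given 2 µM SGC0946, an inhibitor of the H3K79 methyltransferase DOT1L (2C::GFP+/SGC), and reporter cells given 2 µM SGC0946 with 2 µM AS8351, reported to inhibit KDM5 histone demethylases (2C::GFP+/SA). Both treated groups grew in KnockOut serum replacement medium, but the cytokine was LIF for SGC and IL6/sIL-6R for SA, so that effects of AS8351 and of the cytokine cannot be told apart. The series asks which chromatin-directed small molecules turn ESCs into totipotent-like cells. The labels name 2 media for ESCs without saying which the mESC group had, give neither the element that drives the reporter nor any sorting for it, and do not say whether replicates were separate cultures, so p-values measure the spread between these libraries, which may be technical. The 2 columns used as 2C::GFP+ are named KOSR, short for KnockOut serum replacement, a name found in no label. They were matched to that group because every other column had been placed. The name may point to that medium, but no label gives the medium of this group.

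Total counts were 96895327 to 145810034 in the first replicates and 12299931 to 19544870 in the second, so the first replicate was 7.46 to 9.62 times deeper in every group. The histone cluster genes took 380 to 24521 counts per library. Of the 70 genes, 9 had no count in any library: Hist1h2ao, Hist1h2ap, Hist1h2bq, Hist1h2br, Hist2h2aa1, Hist2h2aa2, Hist2h2bb, Hist2h3b and Hist2h3c1. In each of these at most 10.5% of the 31-base words of the annotated transcripts occur in no other gene's transcripts, so a count of 0 does not show that the gene is silent. Over all 70 genes, 43 had under 50% such unique words and 6 had at least 90%. How reads that fit several genes were counted is not given in the sources used here, and counts of near-identical members are therefore uncertain. For 26 members, all 20 H2A genes among them, an exon overlaps an exon of another annotated gene, and whether counting used strand is not given either.

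A stem-loop is the feature that ties the group together, and it was searched for in the GENCODE M21 transcripts. Among the members whose annotated 3′ untranslated region (UTR) is at least 16 bases long, 46 of 52 (88.5%) hold the histone stem-loop within 150 bases after the stop codon. The same search found it in 4 of 20929 other genes (0.0191%), 1 of which is H2afx, the gene of the DNA-damage histone variant H2A.X. The stem-loop started 21 to 58 bases after the stop codon. Printed here are the stem-loops of 6 members that the results turn on, 30 bases each in the direction of transcription, with the 16-base stem-loop in capitals.
Hist1h4i: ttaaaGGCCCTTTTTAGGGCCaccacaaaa
Hist1h4j: ctaaaGGTCCTTTTCAGGACCaccacatct
Hist1h1c: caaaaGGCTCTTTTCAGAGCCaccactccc
Hist1h2ae: acaaaGGCTCTTTTCAGAGCCattcactta
Hist3h2ba: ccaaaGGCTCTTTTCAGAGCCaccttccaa
Hist1h3c: aaaaaGGCTCTTTTAAGAGCCacctaagat

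The 46 members use 8 forms of the stem-loop. The form of Hist1h1c, Hist1h2ae and Hist3h2ba was the commonest, in 26 members of the H1, H2A, H2B and H3 classes, and the form of Hist1h3c was in 6 members. Every H4 stem-loop found was of another kind: 7 H4 genes share one form, 2 share that of Hist1h4i, 2 share that of Hist1h4j and 1 has its own. The capitals above lie at chr13:22040966-22040981 (minus strand) for Hist1h4i, chr13:21735437-21735452 (plus) for Hist1h4j, chr13:23739512-23739527 (plus) for Hist1h1c, chr13:23570668-23570683 (minus) for Hist1h2ae, chr11:58949349-58949364 (plus) for Hist3h2ba and chr13:23745047-23745062 (minus) for Hist1h3c, all in GRCm38. In 26 members the annotated transcript runs at least 50 bases past the stem-loop, and 17 members hold AATAAA or ATTAAA, the common polyadenylation signals, after it. The Hist1h1c model runs 840 bases past the stem-loop, that of Hist1h4i 330 bases and that of Hist3h2ba 169 bases, each with such a signal. Another 16 members have no annotated 3′ UTR, among them Hist1h4k, Hist1h2al and Hist1h2ba. The models of Hist1h2bc and Hist2h2be have long 3′ UTRs in which the search found no stem-loop.

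Promoters from RefSeq (GRCm38.p6), 250 bases before to 50 bases after the start, matched 62 members. Shown are the 120 bases before the start of 4 members called higher below (an H4, an H1 and 2 H2B genes), with motif matches on either strand in capitals. The motifs were searched on both strands. They were the CCAAT box, the TATA box read as TATAAA, the octamer read as ATTTGCAT and the H1 box read as AAACACA.
Hist1h4i: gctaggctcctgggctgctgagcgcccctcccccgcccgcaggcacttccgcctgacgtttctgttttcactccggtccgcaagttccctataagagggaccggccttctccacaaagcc
Hist1h1c: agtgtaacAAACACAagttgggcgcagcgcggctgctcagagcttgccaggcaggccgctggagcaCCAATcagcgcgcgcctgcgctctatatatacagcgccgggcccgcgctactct
Hist1h2bk: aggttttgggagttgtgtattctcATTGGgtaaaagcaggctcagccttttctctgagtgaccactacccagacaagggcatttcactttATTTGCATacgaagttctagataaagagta
Hist3h2ba: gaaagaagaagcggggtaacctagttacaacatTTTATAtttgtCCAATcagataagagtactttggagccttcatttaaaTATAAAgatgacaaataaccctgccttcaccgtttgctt

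They lie at chr13:22041363-22041482 (minus), chr13:23738687-23738806 (plus), chr13:22035701-22035820 (plus) and chr11:58948791-58948910 (plus). In the full windows CCAAT, the site of the NF-Y factor, was in 53 of 62 members (85.5%) against 37.4% of 32544 promoters in the table. It was in all 50 matched H1, H2A, H2B and H3 promoters together and in 3 of 12 H4 promoters. TATAAA was in 56.5% of members and 13.6% of all promoters. The octamer, bound by POU factors such as Oct1, was in 7 of 18 H2A and 6 of 16 H2B promoters, in none of the other classes, and in 1.75% of all promoters. Windows of some neighbouring H2A and H2B genes overlap, as for Hist1h2ah and Hist1h2bk. The same octamer or CCAAT can then be counted for both genes. The H1 box was in 5 of 6 H1 promoters and in 7.20% of all promoters. A match is a description of letters and not evidence of binding.

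Polyadenylated histone cluster RNA was lowest in the mESC libraries and highest in the SA libraries. Summed over the 70 genes, the level in CPM (read counts scaled to library size, with sizes adjusted for composition by the TMM method) was 29.2 and 19.5 in the mESC libraries, 56.8 and 57.6 in the 2C::GFP+ libraries, 70.9 and 83.3 in the SGC libraries and 269 and 245 in the SA libraries. The 4 groups did not overlap. The group means were 24.3 ± 6.82 (SD, n = 2), 57.2 ± 0.554, 77.1 ± 8.73 and 257 ± 16.9 CPM, so the SA mean was 4.49 times that of 2C::GFP+ and 10.6 times that of mESC. With 2 libraries against 2 an exact permutation test cannot give a two-sided p below 0.333, so no test is given for sums. Hist1h4i, Hist1h1c and Hist1h2bc together made up 42.8% to 53.7% of the sum in every library, and without these 3 the sum was 14.1 and 9.03 CPM in mESC, then 27.6 and 32.5 in 2C::GFP+, 39.1 and 46.0 in SGC, and 154 and 121 in SA. In bulk RNA a larger share of cells with these transcripts and more transcript per cell cannot be told apart.

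**Figure D1:**
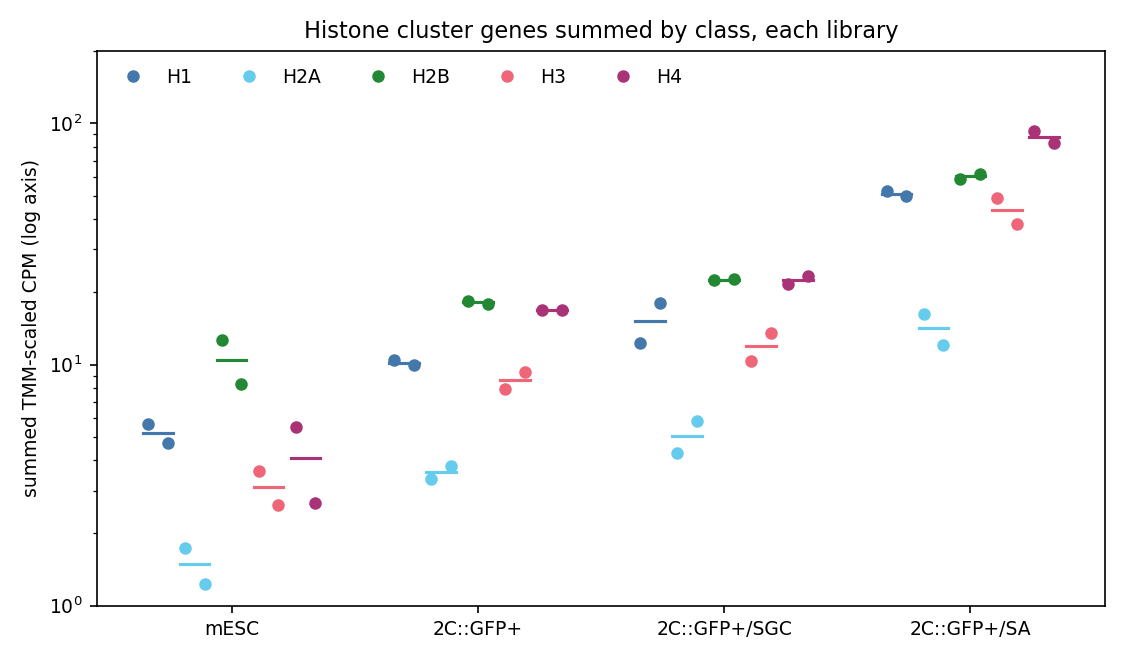
Summed TMM-scaled CPM (log axis) of the histone cluster genes of each class in each of the 8 libraries, by group. Points are libraries and short bars are means of 2. In every class the SA libraries lie above all others, and in mESC the H2B sum is the highest while in SA the H4 sum is.

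In all 5 classes the summed level was lowest in mESC, then higher in 2C::GFP+, SGC and SA in that order of means. From 2C::GFP+ to SA, the summed CPM was 5.23 times higher for H4, 5.07 times for H3, 5.02 times for H1, 3.96 times for H2A and 3.33 times for H2B. From mESC to SA the ratios were 21.5 for H4, 14.0 for H3, 9.82 for H1, 9.53 for H2A and 5.77 for H2B. In TPM, which scales counts by gene length as well as by library, H2B was highest in mESC at 36.4 ± 9.03 (SD, n = 2), then H4 at 21.8 ± 10.2, H3 at 15.1 ± 3.04, H1 at 13.3 ± 0.389 and H2A at 9.67 ± 1.09. There H2B lay above H4 in each library, at 42.8 and 29.98 TPM against 29.03 and 14.6, though the ranges nearly met. H4 also lay above H3 in each library, H3 being at 17.2 and 12.9 TPM, but their ranges overlapped. The ranges of H3 and H1 overlapped as well. These differences were not tested. In SA, H4 was highest at 450 ± 35.2 TPM, then H2B at 247 ± 41.0, H3 at 200 ± 5.33, H1 at 118 ± 8.20 and H2A at 89.3 ± 4.29. H4 was also above H2B in both libraries of 2C::GFP+ and of SGC. Of the 20 H2A genes 4 had no count in any library, and all 20 overlap an exon of another annotated gene. Whether reads lost to such overlaps lowered the H2A sums was not tested.

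Tests were run with edgeR's quasi-likelihood test on all 20608 genes that passed a filter on low counts, with Benjamini-Hochberg adjusted p under 0.05 as the call. Of the 70 members, 54 passed that filter and 7 had counts but did not pass, at most 33 counts in all 8 libraries together. The filter needs a gene above its limit in only 2 libraries, and 7 of the 54 met it in the SA group alone. These could hardly have been called other than higher in SA. The 18 members above the limit in every group are therefore given separately.

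**Figure D2:**
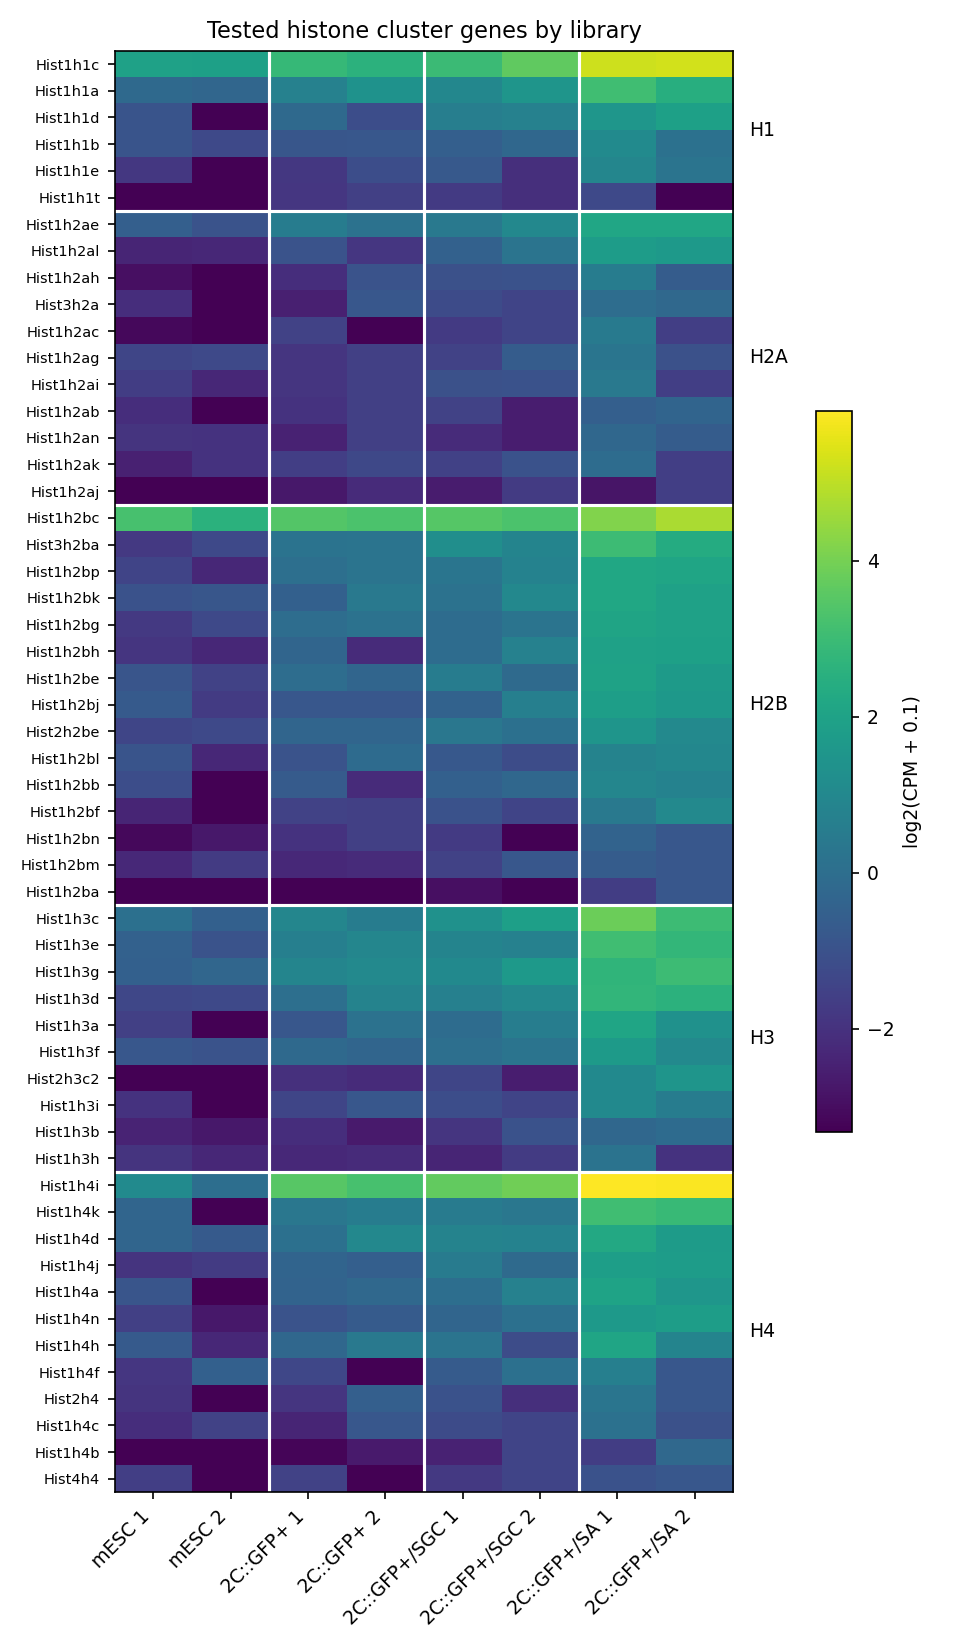
TMM-scaled CPM of the 54 tested members as log2(CPM + 0.1), one row per gene grouped by class and ordered within a class by SA level, one column per library. The SA columns are the brightest for most rows. Hist1h1c and Hist1h2bc stand out in all columns, and Hist1h4i in the columns of reporter cells.

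The first comparison asks how reporter cells differ from wild-type ESCs without any drug. Of 54 tested members 12 were higher in 2C::GFP+ than in mESC and 0 were lower (edgeR). Among all tested genes 15.2% were called higher and 9.12% lower. In 37 of the 54 tested members both 2C::GFP+ libraries lay above both mESC libraries, against 33.9% of all tested genes. The median log2 fold change of the 54 was 1.27 against 0.04 over all tested genes. Of the 18 members above the filter limit in every group, 8 were higher. By class, 3 of 6 H1, 0 of 11 H2A, 3 of 15 H2B, 4 of 10 H3 and 2 of 12 H4 genes were called, and the difference between classes was not tested. The medium may also differ between these groups, since the mESC medium is not settled by the labels.

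Hist1h4i, an H4 gene near the end of the first Hist1 stretch (chr13:22040636-22041362), was the member with the smallest adjusted p. Its CPM was 2.03 and 0.924 in mESC, then 11.3 and 9.27 in 2C::GFP+, 13.04 and 14.9 in SGC, and 60.4 and 58.5 in SA. No pair of groups overlapped. The log2 fold change from mESC to 2C::GFP+ was 2.66 ± 0.27 (SE, adjusted p = 1.32e-05, edgeR). It was also the most abundant member per length, at a mean of 96.6 TPM over the 8 libraries. Of its words 64.4% are unique, where the H4 genes range from 8.33% (Hist1h4m) to 97.4% (Hist2h4). Hist1h4j, an H4 gene whose stem-loop is shown above, rose by a log2 fold change of 1.90 ± 0.57 (adjusted p = 0.026, edgeR).

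Among the linker histones, Hist1h1a and Hist1h1c were higher in 2C::GFP+. Linker histones bind DNA between nucleosomes. Hist1h1c (H1.2), the one with the highest mean TPM, had 3.85 and 3.70 CPM in mESC and 7.27 and 5.999 in 2C::GFP+ (log2 fold change 0.82 ± 0.25 SE, adjusted p = 0.0296, edgeR). Hist1h1a (H1.1) had 0.787 and 0.719 CPM in mESC and 1.55 and 2.49 in 2C::GFP+ (log2 fold change 1.37 ± 0.44 SE, adjusted p = 0.0349). Neither gene's groups overlapped. Hist1h1t, the H1 of spermatocytes, had no count in either mESC library and 0.175 and 0.238 CPM in 2C::GFP+, at least 9.56-fold higher when mESC is set to 3 counts over the group (adjusted p = 0.0283, edgeR). It had 0.2005 and 0.136 CPM in SGC and 0.307 and 0 in SA.

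H3 genes were called in 4 of 10 cases. Hist1h3d had 0.291 and 0.308 CPM in mESC and 0.935 and 1.66 in 2C::GFP+ (log2 fold change 2.05 ± 0.48 SE, adjusted p = 0.00653, edgeR). Hist1h3e and Hist1h3g rose by 1.55 ± 0.41 and 1.48 ± 0.41 on the log2 scale (adjusted p = 0.0134 and 0.0165, edgeR). Hist2h3c2, an H3.2 gene of the Hist2 cluster, had no count in mESC and 0.142 and 0.119 CPM in 2C::GFP+, at least 7.26-fold higher (adjusted p = 0.0104). Its near-identical neighbours Hist2h3c1 and Hist2h3b had no counts, so its own count is uncertain.

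The H2B genes called were Hist3h2ba, Hist1h2bp and Hist1h2bg. Hist3h2ba, the H2B gene of the Hist3 cluster, had 0.189 and 0.308 CPM in mESC and 1.03 and 1.07 in 2C::GFP+ (log2 fold change 2.23 ± 0.50 SE, adjusted p = 0.00501, edgeR). Hist1h2bp and Hist1h2bg followed at 2.15 ± 0.54 and 2.05 ± 0.53 (adjusted p = 0.00955 and 0.0121). Hist1h2bc, the H2B gene with the highest mean TPM, had 9.20 and 5.85 CPM in mESC and 10.7 and 9.86 in 2C::GFP+. The groups did not overlap, and the log2 fold change of 0.43 ± 0.27 did not pass (adjusted p = 0.268). No H2A gene passed, the nearest being Hist1h2ah at 3.18 ± 1.10 (adjusted p = 0.0502), of whose words 7.47% are unique. Leaving out mESC replicate 1, mESC replicate 2 or 2C::GFP+ replicate 2 left 7 members called in each case, and of the 12 calls that of Hist1h4i alone held in all 16 alternatives run.

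SGC0946 alone gave no call among the members. Set against untreated reporter cells, the SGC group addresses DOT1L inhibition by itself, although the labels do not give the medium of the untreated reporter cells. 0 of 54 members and 0% of all genes were called by edgeR, 3 members and 2037 genes had an unadjusted p under 0.05, DESeq2 called 274 genes and 0 members, and limma on log2(TPM + 1) called 0 of both. The smallest adjusted p of a member was 0.468, for Hist1h1c, at 7.27 and 5.999 CPM in 2C::GFP+ and 7.73 and 12.6 in SGC. Its log2 fold change was 0.58 ± 0.25. The log2 fold change was above 0 in 47 of 54 members, with a median of 0.51 (0.49 with Hist1h2ba, which had no count in 2C::GFP+, at its bound) against 0.03 over all tested genes. In 24 of the 54 tested members both SGC libraries lay above both 2C::GFP+ libraries, against 24.3% of all tested genes. Hist3h2ba had 1.03 and 1.07 CPM in 2C::GFP+ and 2.27 and 1.70 in SGC (log2 fold change 0.95 ± 0.43 SE, adjusted p = 0.493, edgeR). Values that miss the threshold do not show that SGC0946 leaves the genes as they were.

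The full SA treatment was followed by higher polyadenylated RNA from most tested members. Against untreated 2C::GFP+, 33 of 54 were higher and 0 were lower (edgeR), where 14.9% of all tested genes were called higher and 13.8% lower, 28.7% in either direction. All 54 had a log2 fold change above 0, with a median of 2.21 against 0.01 over all tested genes. Both SA libraries lay above both 2C::GFP+ libraries in 47 of the 54 tested members, against 32.4% of all tested genes. The 18 members above the filter limit in every group were all called higher, with a median log2 fold change of 2.10. Of the 20 tested members with at least 60% unique words 14 were higher, as were 19 of the 34 with fewer. Leaving out 2C::GFP+ replicate 1 left 13 calls, and leaving out 2C::GFP+ replicate 2 or SA replicate 1 left 21 each.

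**Figure D3:**
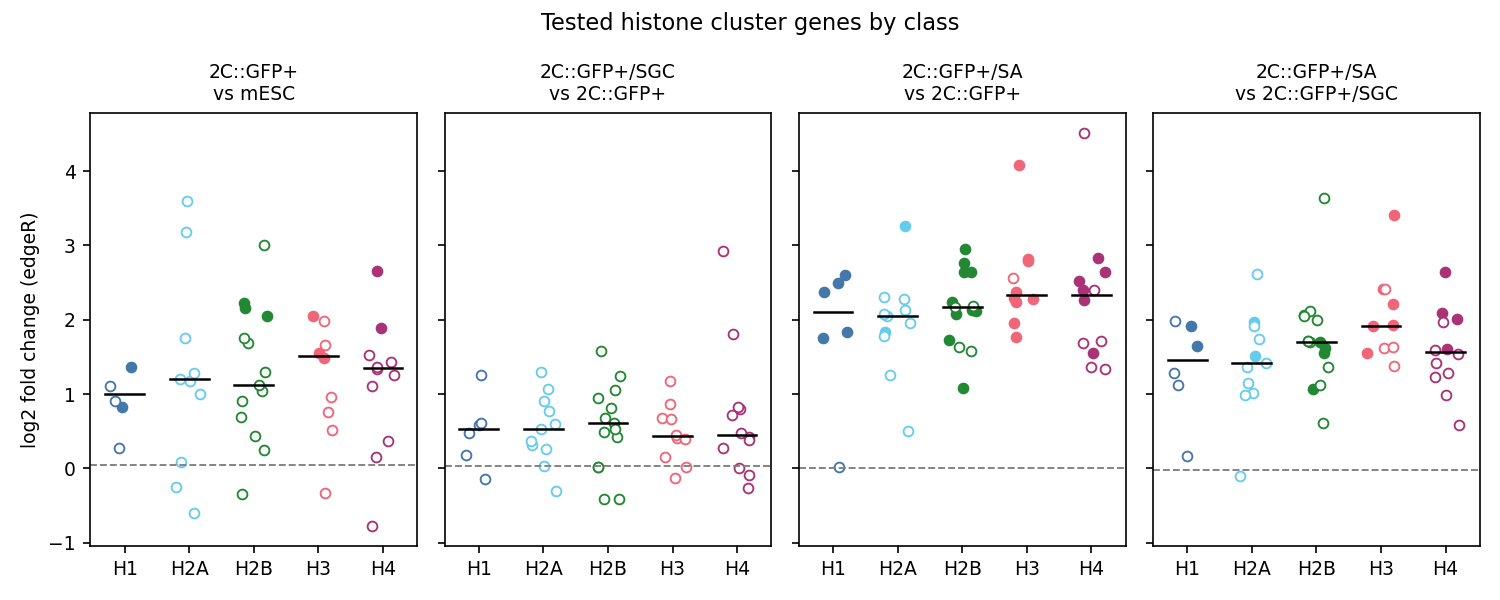
Log2 fold change (edgeR) of each tested member by class in the 4 comparisons. Filled points passed an adjusted p of 0.05, open points did not, black bars are class medians over all tested members, the dashed line is the median of all tested genes, and members without a count in the lower group are not drawn. The SA comparisons hold most of the filled points, and the SGC panel holds none.

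H4 genes passed in 6 of 12 cases. Hist1h4i, whose values stand above, rose by a log2 fold change of 2.52 ± 0.25 (adjusted p = 2.01e-05, edgeR). Hist1h4n had 0.409 and 0.535 CPM in 2C::GFP+ and 3.06 and 3.47 in SA (log2 fold change 2.83 ± 0.59 SE, adjusted p = 0.00305). Hist1h4j and Hist1h4k rose by 2.40 ± 0.50 and 2.65 ± 0.69 (adjusted p = 0.00304 and 0.0166). Only 13.8% of the words of Hist1h4k and 12.5% of those of Hist1h4n are unique, and the call of Hist1h4k was lost with DESeq2 and with limma on TPM. Hist4h4, the lone gene on chromosome 6, had 0.250 and 0 CPM in 2C::GFP+ and 0.405 and 0.462 in SA, and did not pass in any of the 4 comparisons (adjusted p = 0.407 here).

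H3 genes were called in 9 of 10 cases. Hist1h3c, the H3 member with the highest mean TPM, had 0.969 and 0.616 CPM in mESC, then 1.80 and 1.37 in 2C::GFP+, 2.43 and 3.60 in SGC, and 14.2 and 7.93 in SA. The SA libraries lay well above the rest and differed from each other. The log2 fold change from 2C::GFP+ to SA was 2.79 ± 0.41 (adjusted p = 0.000248, edgeR). Hist1h3e had 1.49 and 1.78 CPM in 2C::GFP+ and 8.43 and 6.78 in SA (log2 fold change 2.24 ± 0.39 SE, adjusted p = 0.000888), although only 15.6% of its words are unique. Hist1h3d and Hist1h3g rose by 2.37 ± 0.43 and 1.96 ± 0.38 on the log2 scale. Hist2h3c2 had 0.142 and 0.119 CPM in 2C::GFP+ and 1.98 and 2.696 in SA (log2 fold change 4.08 ± 0.78 SE, adjusted p = 0.00207), and it is among the members that met the filter in SA alone.

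Linker histone genes were called in 5 of 6 cases, Hist1h1t being the exception at a log2 fold change of 0.02 ± 1.03. Hist1h1c had the smallest adjusted p of all members. Its CPM was 7.27 and 5.999 in 2C::GFP+ and 36.8 and 38.7 in SA (log2 fold change 2.50 ± 0.25 SE, adjusted p = 1.84e-05, edgeR). Hist1h1a had 8.45 and 5.39 CPM in SA (log2 fold change 1.83 ± 0.42 SE, adjusted p = 0.00493), and Hist1h1d and Hist1h1b followed at 2.38 ± 0.72 and 1.76 ± 0.60. The call of Hist1h1d was lost in 5 of 16 alternatives, among them all limma fits and the fits without either 2C::GFP+ library, that of Hist1h1b in 6 of 16 and that of Hist1h1a in 2 of 16. All 3 genes have over 95% unique words.

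Of the H2B genes 11 of 15 were called. Hist3h2ba had 7.93 and 5.08 CPM in SA against 1.03 and 1.07 in 2C::GFP+ (log2 fold change 2.65 ± 0.44 SE, adjusted p = 0.000598, edgeR). Hist1h2bh, Hist1h2bj and Hist1h2bk rose by 2.95 ± 0.63, 2.77 ± 0.60 and 2.24 ± 0.52. Hist1h2bc rose least among the named H2B genes, from 10.7 and 9.86 CPM to 17.7 and 26.4 (log2 fold change 1.09 ± 0.27 SE, adjusted p = 0.00802). It made up 31.5% and 30% of all histone cluster CPM in the mESC libraries and 6.59% and 10.8% in the SA libraries, while Hist1h4i went from 6.95% and 4.74% to 22.5% and 23.9%. Hist2h2be, known as an H2B variant of olfactory neurons, rose from 0.701 and 0.713 CPM to 2.71 and 1.93 (log2 fold change 1.73 ± 0.51 SE, adjusted p = 0.021).

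H2A genes were called in 2 of 11 cases, Hist1h2ae and Hist1h2al, a share near the 14.9% of all tested genes that were higher. Hist1h2ae had 1.36 and 1.01 CPM in 2C::GFP+ and 4.33 and 4.31 in SA (log2 fold change 1.83 ± 0.45 SE, adjusted p = 0.0079, edgeR). Hist1h2al, the pseudogene model outside the cluster with 18.1% unique words, had 0.409 and 0.178 CPM in 2C::GFP+ and 3.35 and 3.00 in SA (log2 fold change 3.26 ± 0.59 SE, adjusted p = 0.00113). Hist3h2a, the H2A gene of the Hist3 cluster, had 0.075 and 0.475 CPM in 2C::GFP+ and 0.877 and 0.770 in SA and did not pass (adjusted p = 0.174). The median log2 fold change of the 11 H2A genes was 2.06, near the 2.17 of H2B, 2.11 of H1 and 2.33 of H3 and of H4. Whether the classes differ in share called was not tested, and H2A had the smallest summed CPM of the 5 classes in every group. Every H2A gene also overlaps an exon of another annotated gene, and what this did to H2A counts and calls was not tested.

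The testis core histone genes Hist1h2ba and Hist1h2aa, neighbours in the second Hist1 stretch, were close to the limit of detection. Hist1h2ba (TH2B), the H2B of spermatocytes, had no count in any mESC or 2C::GFP+ library, 0.029 and 0 CPM in SGC, and 0.219 and 0.462 in SA. Its SA level was at least 11.4-fold higher than 2C::GFP+ set to 3 counts over the group (adjusted p = 0.0244, edgeR). It met the filter in SA alone and so could be called in no other direction, and the call was lost without 2C::GFP+ replicate 2 or SA replicate 2. Hist1h2aa (TH2A) had 0.050 and 0 CPM in 2C::GFP+ and 0.197 and 0.077 in SA and was too low to test.

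With AS8351 and the other cytokine added to SGC0946, 20 of 54 members were higher and 0 lower (2C::GFP+/SA against 2C::GFP+/SGC, edgeR), where 7.92% of all tested genes were called higher and 8.18% lower. The SA libraries are shared with the comparison above. In 44 of the 54 tested members both SA libraries lay above both SGC libraries, against 28.7% of all tested genes. The median log2 fold change was 1.63 against -0.02 over all genes, and 13 of the 18 members above the filter limit in every group were called. By class 2 of 6 H1, 2 of 11 H2A, 6 of 15 H2B, 6 of 10 H3 and 4 of 12 H4 genes were higher. The change was 2.10 ± 0.25 for Hist1h4i (adjusted p = 0.000162), 1.92 ± 0.25 for Hist1h1c (adjusted p = 0.00026), 2.22 ± 0.39 for Hist1h3e (adjusted p = 0.0019) and 3.41 ± 0.74 for Hist2h3c2 (adjusted p = 0.00796, all edgeR). Those 4 calls held in all alternatives run, but Hist2h3c2 met the filter in SA alone, so that its call could only be higher and its holding adds no support. The count depended on single libraries: it was 4 without SGC replicate 1, 9 without SGC replicate 2 and 7 without SA replicate 1.

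Over the 4 groups, 39 of 54 tested members (72.2%) had group means that rose from mESC to 2C::GFP+ to SGC to SA, as did 15.9% of all tested genes. This order restates the comparisons above, which share libraries, and adds no test.

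Members of both Hist1 stretches were called. From 2C::GFP+ to SA, 9 of 19 tested members of the first stretch and 20 of 28 of the second were higher, with median log2 fold changes of 2.18 and 2.25. In the Hist2 cluster 2 of 3 tested members were higher and in the Hist3 cluster 1 of 2. Among 51 other genes that lie within either Hist1 stretch or the Hist2 or Hist3 cluster, 22 had counts and 12 were tested. Of these 12, 4 were higher and 0 lower, where 14.9% of all tested genes were higher and 13.8% lower. The 4 are non-coding models chosen after their values were seen: Gm11290, Gm11292, Gm11274 and Gm20627. Gm11290, a lincRNA of the first stretch, had 2.78 and 4.57 CPM in 2C::GFP+ and 64.9 and 47.1 in SA (log2 fold change 3.996 ± 0.29 SE, adjusted p = 2.26e-06, edgeR). The protein-coding neighbours Zfp184 and Prss16, also chosen after their values were seen, did not pass (adjusted p = 0.0806 and 0.226).

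**Figure D4:**
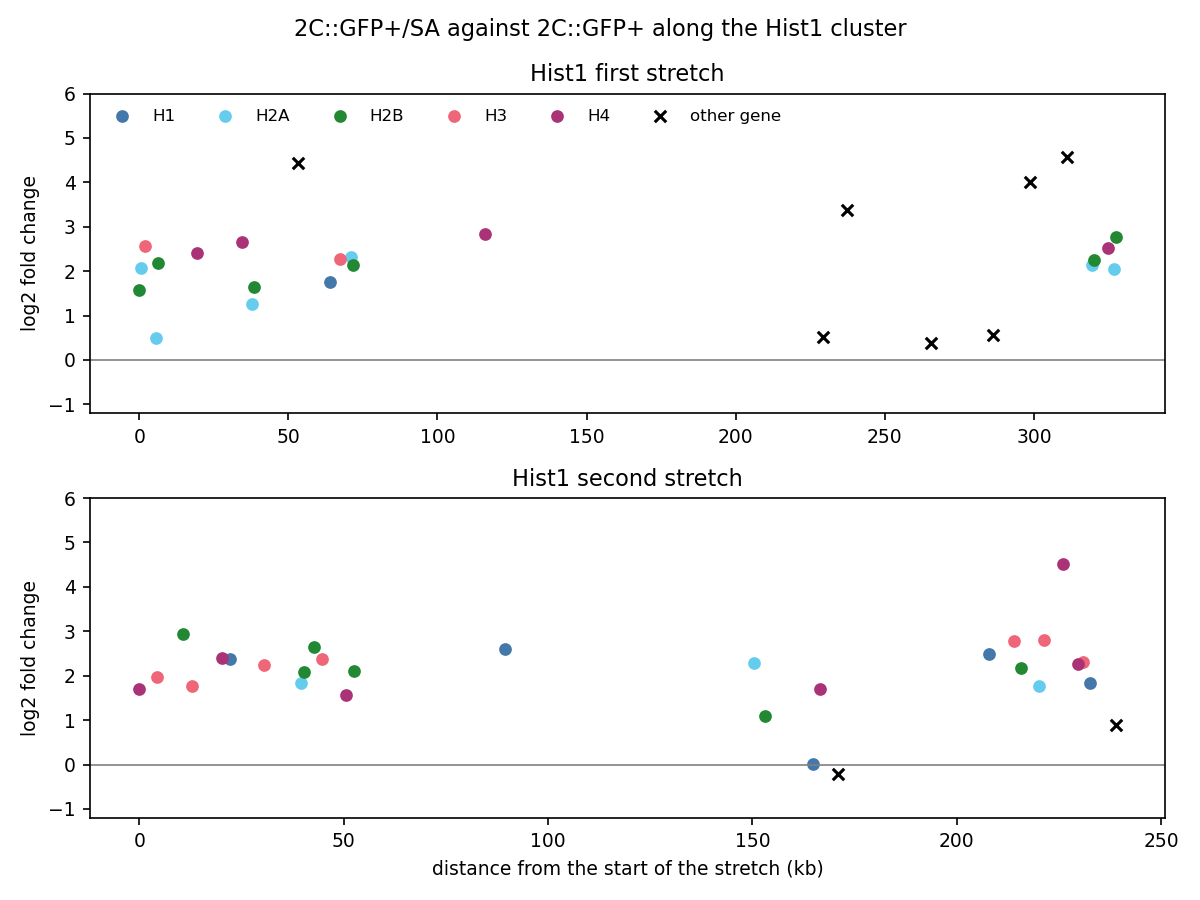
Log2 fold change (2C::GFP+/SA against 2C::GFP+, edgeR) along the 2 stretches of the Hist1 cluster, by distance in kb from the start of the stretch. Coloured points are tested members by class and crosses are other tested genes; Hist1h2ba, without a count in 2C::GFP+, is not drawn. The medians of tested members were 2.18 in the first stretch and 2.25 in the second, and the lowest members lie at 0.50 and 0.02.

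Members were also set apart by how far their annotated transcript runs past the stem-loop. Of the 24 tested members whose model runs at least 50 bases past it, 18 were higher from 2C::GFP+ to SA, with a median log2 fold change of 2.27. Of the 14 whose model ends sooner 7 were higher, with a median of 2.21, and of the 12 without an annotated 3′ UTR 5 were higher, with a median of 2.18. Of all tested genes 14.9% were higher. Tested members with an annotated 3′ UTR in which no stem-loop was found, such as Hist1h2bc, are in none of these sets. The difference in the shares called was not tested.

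The genes that make and process histone mRNA did not move with the cluster genes as a group. From 2C::GFP+ to SA, 1 of 23 genes of histone transcription and stem-loop processing was higher and 6 were lower, with a median log2 fold change of -0.11. Of all tested genes 14.9% were higher and 13.8% lower. For Slbp, which binds the stem-loop, the log2 fold change was 0.06 ± 0.13 SE (adjusted p = 0.768, edgeR), and for Npat, the activator of histone gene transcription, it was 0.25 ± 0.14 SE (adjusted p = 0.186). Cyclin E2 (Ccne2) rose by 1.17 while cyclin E1 (Ccne1) fell by 1.03 and their kinase Cdk2 fell by 0.71 on the log2 scale. Chosen after their values were seen, the other 4 that fell were Lsm10 (-0.70) and Lsm11 (-0.57), which are proteins of the U7 particle, Zfp473 (-0.55), which joins it to SLBP, and Coil (-0.51), the marker protein of Cajal bodies. In SGC against 2C::GFP+ no gene of the list passed. In 2C::GFP+ against mESC 3 were higher and 5 lower, where 15.2% of all tested genes were higher and 9.12% lower.

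Of 18 polyadenylation and pausing factors 3 were higher and 3 lower from 2C::GFP+ to SA, with a median of -0.02. These shares are near those of all tested genes, of which 14.9% were higher and 13.8% lower. Clp1, a subunit of cleavage factor II, rose by 1.26 (adjusted p = 0.000376, edgeR). Nelfa, a subunit of the pausing complex NELF that is also known as a maternal factor of the 2-cell-like state, had 299 and 259.6 CPM in 2C::GFP+ and 3449.6 and 1153 in SA (log2 fold change 3.04 ± 0.58, adjusted p = 0.0185, edgeR). The groups did not overlap, and the SA libraries differed from each other. Its partner Nelfe fell by 0.50.

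S-phase genes that changed were lower in SA. Of 32 genes of DNA replication and its control, 0 were higher and 15 lower from 2C::GFP+ to SA (edgeR). Among all tested genes 14.9% were higher and 13.8% lower. The median log2 fold change of the 32 was -0.36. Among those that fell were Chek1 by 0.79 and Cdc6, a loader of the replicative helicase, by 0.79. In 2C::GFP+ against mESC 4 of the 32 were higher and 0 lower. The share higher is near that of all tested genes, of which 15.2% were higher and 9.12% lower. Of the 4, Rpa1 rose by 1.04 and E2f2 by 1.29. Of 15 histone chaperones 0 were higher and 3 lower in SA against 2C::GFP+, a share near the 13.8% of all tested genes that were lower. Chaf1b, of the CAF-1 complex that deposits H3 and H4 on new DNA, fell by 1.30, Nap1l1 by 0.62 and Hira by 0.55.

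**Figure D5:**
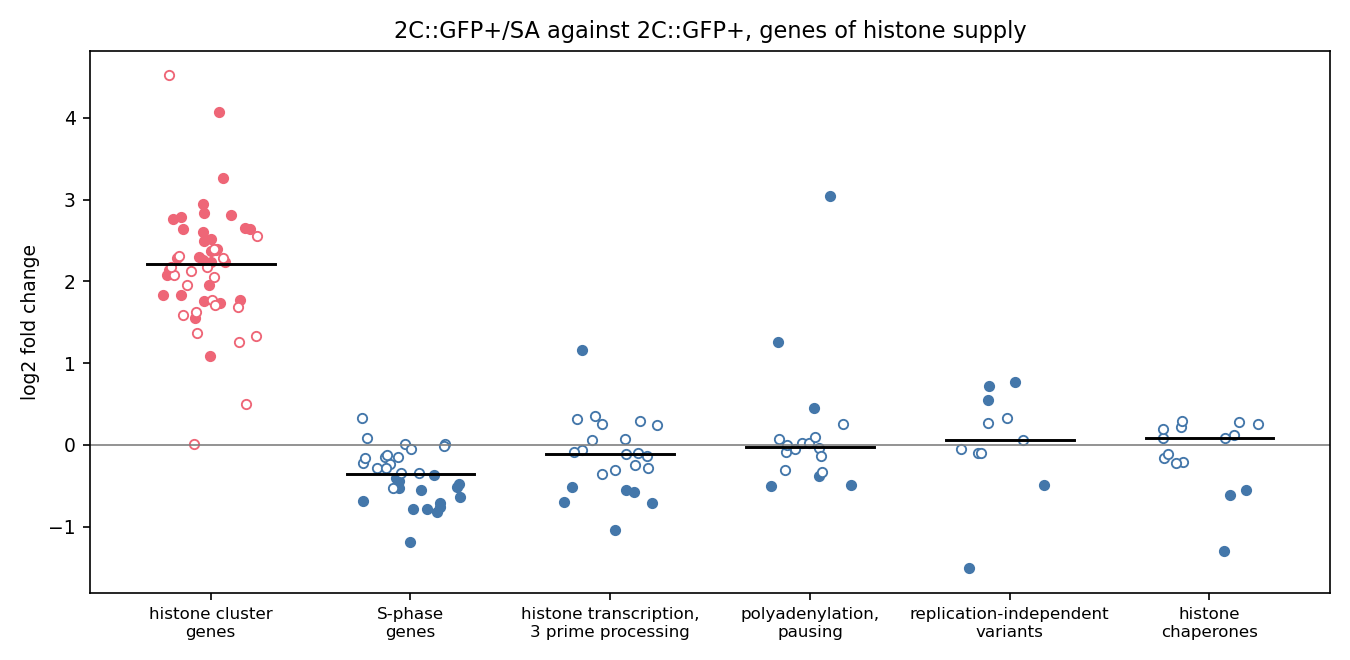
Log2 fold change (2C::GFP+/SA against 2C::GFP+, edgeR) of the tested histone cluster genes and of 5 lists of related genes. Filled points passed an adjusted p of 0.05 and black bars are medians over tested genes. The cluster genes have a median of 2.21, and the 5 lists have medians between -0.36 and 0.08.

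Replication-independent variants come from single genes, mostly with ordinary poly(A) tails, H2afx (below) being an exception. Of 11 tested, 3 were higher and 2 lower from 2C::GFP+ to SA, where 14.9% of all tested genes were higher and 13.8% lower. The median of the 11 was 0.06. The largest change was a fall, that of H2afy2 (macroH2A2), from 31.8 and 28.6 CPM to 10.5 and 10.9 (log2 fold change -1.51 ± 0.18 SE, adjusted p = 4.9e-05, edgeR), and the centromeric H3 variant Cenpa fell by 0.49. H2afx, which holds the stem-loop as well as making a polyadenylated form, rose by 0.73 (adjusted p = 0.00195, edgeR) and H3f3b by 0.54 (adjusted p = 0.0228), while H2afz and H3f3a gave -0.04 and -0.10 and did not pass. H1f0, the linker histone of resting cells, gave 0.34 (adjusted p = 0.107). As a share of the TPM of all H3-coding genes listed (cluster genes with H3f3a and H3f3b), the cluster genes made up 2.95% and 2.25% in mESC, then 4.83% and 5.46% in 2C::GFP+, 6.83% and 7.04% in SGC, and 20.5% and 14.2% in SA. The 4 groups did not overlap. For linker histones, against H1f0 and H1fx, the share went from 10.2 ± 0.0381% (SD, n = 2) in mESC to 13.6 ± 1.05%, 16.5 ± 3.59% and 32.3 ± 3.40%. For H2A, against 6 variant genes, it went from 0.306 ± 0.00188% to 0.828 ± 0.217%, 1.25 ± 0.314% and 2.701 ± 0.233%.

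Other RNA and marker levels that moved between the groups are given for reference. Rn7sk, an abundant RNA without a poly(A) tail chosen after the histone values were seen, had 4.70 and 0.513 CPM in mESC, then 1.56 and 0.950 in 2C::GFP+, 4.36 and 1.16 in SGC, and 4.03 and 2.47 in SA. It was called in none of the 4 comparisons (edgeR adjusted p 0.365 to 0.927), and 0 of 9 tested scaRNA genes were called in any of them. Of 27 tested snRNA genes 6 were higher in SA than in 2C::GFP+, where 14.9% of all tested genes were higher and 13.8% lower. All snRNA genes summed to 12.1 and 10.1 CPM in mESC, then 7.54 and 8.55 in 2C::GFP+, 14.4 and 9.24 in SGC, and 22.6 and 13.1 in SA. Pluripotency markers summed to 4851 and 4129 CPM in 2C::GFP+ and 3683 and 3104 in SA, and 4 of 7 were lower. Markers of the 2C-like state summed to 2.08 and 5.60 CPM in mESC, then 409 and 525 in 2C::GFP+, 991 and 1052 in SGC and 4984 and 1802 in SA, and 6 of 6 were higher in 2C::GFP+ than in mESC and 5 of 6 higher in SA than in 2C::GFP+.

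Primitive endoderm markers summed to 229.6 and 331 CPM in mESC, then 98.4 and 121 in 2C::GFP+ and 290.2 and 592 in SA, and 7 of 8 were higher in SA than in 2C::GFP+. Fibroblast markers summed to 14.0 and 15.8 CPM in 2C::GFP+ and 36.7 and 31.4 in SA. Of the 10 in the list 5 were tested and 3 were higher, S100a4 was at 0 in all libraries, and Postn, Lum and Twist2 were at 0 in both 2C::GFP+ libraries. Trophoblast markers summed to 104.6 and 117 CPM in mESC, then 35.7 and 41.9 in 2C::GFP+ and 36.5 and 54.9 in SA. Of 7 tested, 4 were lower and 1 higher in 2C::GFP+ than in mESC, against 9.12% and 15.2% of all tested genes. From 2C::GFP+ to SA 2 of the 7 were higher, against 14.9% of all tested genes. Elf5 was at 0 in both 2C::GFP+ libraries. The part of these levels in the histone result was not tested.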

How the data were processed

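Poly(A)-selected bulk RNA-seq of 8 mouse ESC libraries was used as deposited. The authors deposited raw counts per gene and TPM values. Per the submitters' processing notes, the tools included featureCounts 2.0.0 and STAR 2.7.4a beside FastQC 0.11.9 and Trim Galore 0.6.5, with builds mm10 and GRCm38 named. Strand and multi-mapping settings: not given in the sources used here. Lengths implied by TPM and counts matched GENCODE M21 exon unions within 1% for 99.5% of genes and for 61 of 61 members with counts. 55480 of 55573 gene IDs were in GENCODE M21.

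All 16 columns of both tables were used. 6 of the 8 columns in each were matched by name, and the remaining 2 were assigned to 2C::GFP+ by elimination.

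Counts were tested with edgeR 4.0.16 (TMM, filterByExpr, robust quasi-likelihood test, R 4.3.3) on all 8 libraries with group as the only factor and 4 residual degrees of freedom, and p-values were adjusted (Benjamini-Hochberg) over all 20608 tested genes. DESeq2 1.42.0 and limma 3.58.1 on log2(TPM + 1) served as alternatives, with other filters, a pseudocount of 0.1, the replicate block and left-out libraries. The tools were tested on simulated counts for the 8 libraries with changes set in SA. Bounds set a group without counts to 3 counts, and bounds cover counting error only.

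Named were the 3 members with the highest mean TPM per class, up to 3 called members per class, direction and comparison by smallest adjusted p, and 9 fixed members; from each list up to 3 called genes per comparison or the 2 most abundant, and 7 fixed genes. The members and lists were chosen with earlier results of these data known.

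Stem-loops were sought in GENCODE M21 transcripts and promoters taken from RefSeq. The promoter's last 25 bases lay in the member's M21 transcript for 44 of 62 members.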

Additional observations from a re-analysis of the deposited data

How the results depend on the processing

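None of the counts of calls and medians of members recomputed under the alternatives changed direction. Named genes were compared by whether they were called, which does not follow the sign of fold changes that were not called. Class sums, shares, marker sums and neighbouring genes were not recomputed. With limma on log2(TPM + 1) the median log2 fold change of tested members was 0.80 for 2C::GFP+ against mESC, 1.78 for SA against 2C::GFP+ and 1.25 for SA against SGC; without a filter on TPM it was 0.70, 1.35 and 1.02, and 5 members were called for 2C::GFP+ against mESC and 12 for SA against SGC. A pseudocount of 1 shrinks the fold change of low genes. Leaving out 1 library at a time gave 7 to 15 calls for 2C::GFP+ against mESC (median 1.01 to 1.69), 13 to 37 for SA against 2C::GFP+ (median 2.05 to 2.36), 4 to 25 for SA against SGC (median 1.51 to 1.81) and 0 for SGC against 2C::GFP+. Such fits leave 1 library in a group, which is then assumed to vary like the others. With the replicate number as a block the calls were 13, 0, 35 and 25, in the order 2C::GFP+ against mESC, SGC against 2C::GFP+, SA against 2C::GFP+ and SA against SGC. Libraries with the same number deviated together only weakly (correlations of 0.04 to 0.14), and the labels do not say that numbers mark pairs, so the block is not used. Over all genes the block moved the count for SGC against 2C::GFP+ from 0 to 284, and DESeq2 gave 274, fits without a filter 499 and fits to the 4 libraries alone 326. For the named genes 293 calls were lost, 97 gained and 3742 held or stayed uncalled over all alternatives. Depth limits the low members most, since the second replicates held 380 to 3178 histone counts.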
